A study of Drosophila melanogaster with 6 samples.

Results

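The 10 genes described here, which encode nutrient and starvation transcription factors, were followed through the cell types of the adult fly body: *REPTOR*, *REPTOR-BP*, *Hnf4*, *sug*, *Mondo*, *bigmax*, *srl*, *ERR*, *Mitf* and *cbt*. They were chosen by name, with earlier results of these data known, so shares set beside those of all genes are descriptive. They are 10 of the 12925 genes in the deposited matrix, and all 10 were measured. RNA was sequenced from single nuclei of female flies without heads, of the genotype PromE-gal4, Tub-gal80ts. This genotype carries an oenocyte Gal4 driver held off by a temperature-sensitive Gal80, and the labels name no target transgene for it. Flies were grown at 18 °C and kept as adults at 29 °C, for which the labels give both 5 and 7 days. The 3 groups were fed flies, flies at day 2 of starvation and flies at day 5 of starvation, starved on a medium from which calories other than those of acetic acid were left out. These days are those of the sample titles. The library names carry 5 where the titles say day 2 and 7 where the titles say day 5, and the labels do not explain this. Fed, day 2 and day 5 flies share the genotype, the sex and the incubation, and each group has 2 libraries. The sources do not say whether the libraries of a group came from separate flies, so the p-values measure only the spread between these libraries, which may be technical.

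These factors link gene activity to the supply of food. Mondo, the fly homologue of ChREBP, pairs with Bigmax, the Mlx homologue, to sense phosphorylated sugars, and the zinc-finger factors Sugarbabe (*sug*) and Cabut (*cbt*) act downstream of it. REPTOR and its partner REPTOR-BP are bZIP factors that become active when the TORC1 kinase is low. Hnf4 is a nuclear receptor that drives fat breakdown, Spargel (*srl*) is the PGC-1 homologue and a coactivator of mitochondrial genes, ERR is a nuclear receptor that activates glycolytic genes in larvae, and Mitf, the TFEB homologue, drives lysosome, V-ATPase and autophagy genes. REPTOR and Mitf are controlled in good part by phosphorylation and by their place in the cell, which transcript levels do not show. Fat body and oenocytes together do much of the work of the mammalian liver and adipose tissue, and enterocytes take up nutrients in the midgut.

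The matrix held 43027 nuclei in 26 clusters that the authors named. Libraries held 3776 to 10091 nuclei and 7562557 to 22932942 unique molecular identifiers (UMIs, each standing for a captured RNA molecule), and the median nucleus of a library had 1074 to 1329 UMIs. Libraries of starvation day 5 were the smallest, and 179 cell barcodes occurred in more than 1 library. A level is given below as UMIs of the gene per 10000 UMIs of all genes in a library and cluster. Changes were tested with limma on log2 levels in the 19 clusters that held 20 or more nuclei of each library, and a gene is said to have risen or fallen where its Benjamini-Hochberg adjusted p over all genes tested in the cluster was under 0.05. Entry to the test of a cluster took a UMI of the gene in 10 or more nuclei of 2 or more libraries, and 173 of the 190 combinations of a factor and a cluster passed. All 10 factors had a UMI in nuclei of many clusters, but *ERR* (2879 UMIs in all), *bigmax* (3583) and *srl* (15235) were tested in 14, 14 and 17 clusters.

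Names of the clusters were set against marker genes. All 5 fat body markers were highest in cluster 3 (fat body), all 4 oenocyte markers in cluster 15 (adult oenocyte) and all 4 flight muscle markers in cluster 0 (indirect flight muscle). All 5 enterocyte markers were highest in cluster 12, which the annotation names Malphian tubule and pericardial cells, so it is called cluster 12 below. None of 5 follicle cell markers was highest in cluster 14 (follicle cell St. 9+), none of 3 tracheal markers in cluster 10 (Trachea cells) and 1 of 4 markers of other muscle in cluster 1 (muscle), and these are given by number as well. RNA of cells outside a cluster was present in all of them: 6 eggshell genes, which follicle cells make, summed to 13.7 UMIs per 10000 in both fed libraries of fat body.

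In the Ensembl annotation of build BDGP6, *cbt* (FBgn0043364, 2L:476446-479688), *Hnf4* (FBgn0004914, 2L:8687226-8709611), *REPTOR-BP* (FBgn0032202, 2L:10264125-10265229) and *Mondo* (FBgn0032940, 2L:21286078-21310050) lie on 2L. The gene *sug* (FBgn0033782) spans 2R:12924567-12930644 and *ERR* (FBgn0035849) spans 3L:8183361-8186671. On 3R lie *srl* (FBgn0037248, 3R:4422483-4429335), *REPTOR* (FBgn0039209, 3R:24557368-24582864) and *bigmax* (FBgn0039509, 3R:27287366-27288526), and *Mitf* (FBgn0263112, 4:1198852-1224467) lies on chromosome 4. *REPTOR-BP* and *Mitf* overlap no other gene of the annotation. *Mondo* overlaps *Gr39a*, *cbt* overlaps *ush*, *Hnf4* overlaps *asRNA:CR44992* and *REPTOR* overlaps *lncRNA:CR46094*, all on the opposite strand, and *sug* overlaps the end of *CG13319* on its own strand. *ERR* overlaps *Uxs* and *asRNA:CR45870*, *bigmax* overlaps *CG3368* and *srl* overlaps *CG31525*, also on the opposite strand. *Hnf4* further overlaps *CatB*, and *ERR* further overlaps *asRNA:CR45869*, on the opposite strand, but neither partner is in the matrix. The sources used here do not say how strand was used in counting, so reads of these pairs may have been split between partners and the values are uncertain to that extent.

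In fed flies *sug* was highest in fat body and cluster 12, and the other sugar-linked factors had different orders. *sug* had 23.2 and 23.2 UMIs per 10000 in the 2 libraries of fat body and 16.2 and 14.6 in cluster 12. Next came cluster 25 (multidendritic neuron) with 3.29 and 11.4, from 45 UMIs, then cluster 14 with a mean of 1.48. *Mondo* was highest in cluster 4 (follicle cell, mean 12.9), followed by fat body (9.93) and cluster 14 (9.14), whose ranges overlapped, and lowest in cluster 1 (1.02). *cbt* led in cluster 14 (3.84), followed by fat body (3.07) and oenocytes (3.03), which overlapped. *bigmax* did not separate cluster 12 (0.623), cluster 4 (0.609), cluster 25 (0.608) and fat body (0.542), whose libraries overlapped.

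The other factors had their own orders. *Hnf4* was highest in cluster 14 (21.2 UMIs per 10000 on average), oenocytes (18.3) and fat body (13.2), with no overlap between these 3, and lowest in cluster 9 (neuron, 1.22). *ERR* was highest in the same cluster 14 (0.816), in oenocytes (0.590) and in cluster 12 (0.467). *REPTOR* (11.6) and *REPTOR-BP* (2.61) were both highest in cluster 10, without overlap with the next cluster. *REPTOR* followed in cluster 14 (10.1) and oenocytes (9.51), and was lowest in cluster 7 (ovary cell, 2.06), while *REPTOR-BP* followed in fat body (1.75), cluster 12 (1.75) and cluster 16 (adult pylorus, 1.74), which overlapped. *srl* led in clusters 4 (5.92) and 5 (4.97), both named follicle cell in the annotation. *Mitf* was highest in cluster 16 (5.72) and cluster 4 (5.70), which overlapped, and near its lowest in oenocytes (1.39), beside cluster 9 (1.31). The heat map of fed levels shows these orders against the median of each gene.

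**Figure D1:**
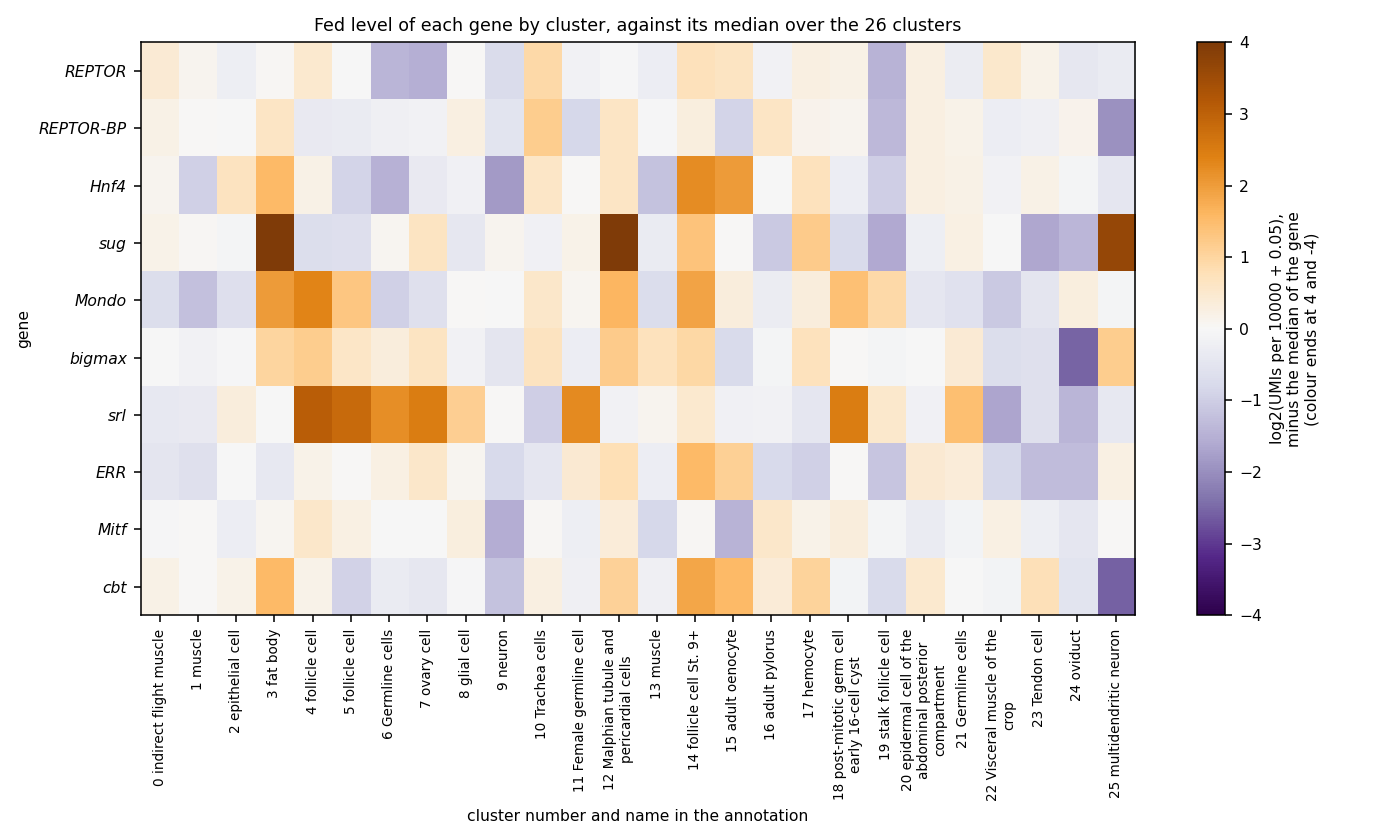
Fed level of the 10 genes (rows) in the 26 clusters (columns), as log2 of UMIs per 10000 plus 0.05 with the gene's median over the clusters taken away, orange above and purple below it, averaged over 2 fed libraries. *sug* stands out in fat body and cluster 12 (means of 23.2 and 15.4 UMIs per 10000), and *Hnf4* in cluster 14, oenocytes and fat body.

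Fed levels were compared within libraries for 5 pairs of clusters, 48 tests of these genes, of which 21 passed, beside 36.7% of all genes tested in these pairs. The level of *sug* was 37.6-fold higher in fat body than in flight muscle (log2 difference 5.23, adjusted p = 8.72e-05) and 41.1-fold higher in fat body than in oenocytes (log2 difference 5.36, adjusted p = 0.000228). In the fed libraries *sug* stood at 2.72% and 2.59% of its fat body level in flight muscle and at 2.13% and 2.68% in oenocytes, while the summed fat body markers stood at 4.67% and 4.88% in flight muscle and at 4.60% and 2.18% in oenocytes. The part of RNA from fat body in these low *sug* levels, and so in both folds, was not tested. *Mondo* was higher in fat body than in flight muscle (log2 difference 2.72) and than in oenocytes (1.69), and *Mitf* (1.57) and *REPTOR-BP* (1.55) were higher in fat body than in oenocytes too. *ERR* (log2 difference −1.76) and *REPTOR* (−0.61) were lower in fat body than in oenocytes. Between fat body and oenocytes 6 of the 9 factors tested in both differed in fed flies, beside 1450 of all 3424 genes tested in this pair.

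Starvation changed these genes in a minority of the tests, and more of the calls against fed flies were lower than higher. At day 2, 13 of 173 tests passed (7.51%), 3 higher and 10 lower, beside 4.50% of all gene-by-cluster tests (2.09% higher and 2.41% lower). At day 5, 39 of 173 passed (22.5%), 13 higher and 26 lower, beside 15.7% of all tests (5.72% higher and 9.98% lower). Between the days, 18 of 173 passed (8 higher and 10 lower at day 5), beside 10.7% of all tests. A single gene, *sug*, gave 4 of the 10 decreases at day 2 and 12 of the 26 at day 5. In all 52 calls against fed flies the 2 starved libraries lay on 1 side of the 2 fed libraries. Choosing calls by adjusted p makes this likely for any gene, so it is no further support. Of these 52 calls, 19 passed under every alternative, and 30 were lost when 1 fed library was left out. With median-ratio scaling in place of total UMIs, 18 of 33 calls of these genes at day 5 were lower (54.5%), against 66.7% with totals, as over all genes (50.8% against 63.6%).

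Over both days, calls among these 10 genes were most numerous in fat body and flight muscle. In fat body 5 of the 10 passed at day 2 and 7 at day 5, where 20.8% and 34.5% of all genes did. In flight muscle 3 passed at day 2 and 6 at day 5, where 8.79% and 40.3% of all genes did. In cluster 1 none passed at day 2, 3 of 10 having an unadjusted p under 0.05 in limma, and 5 passed at day 5, against 3.05% and 25.6% of all genes. In cluster 12 the counts were 2 and 4, against 11.3% and 19.7%. Cluster 14 gave 2 of 10 at day 2 and 3 at day 5, against 3.97% and 13.5%, and cluster 5 (follicle cell) gave 4 at day 5, against 18.4%. In oenocytes 1 of 9 passed on each day, against 6.27% and 14.0%. None of the 46 tests in clusters 7, 8, 13, 16, 17 and 20 passed at day 5, where 7 had an unadjusted p under 0.05 in limma. Of all genes, 1.06%, 6.73%, 4.27%, 0.804%, 9.01% and 6.79% passed in these clusters, in that order. With shares this low, the lack of calls says little about these 10 genes.

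**Figure D2:**
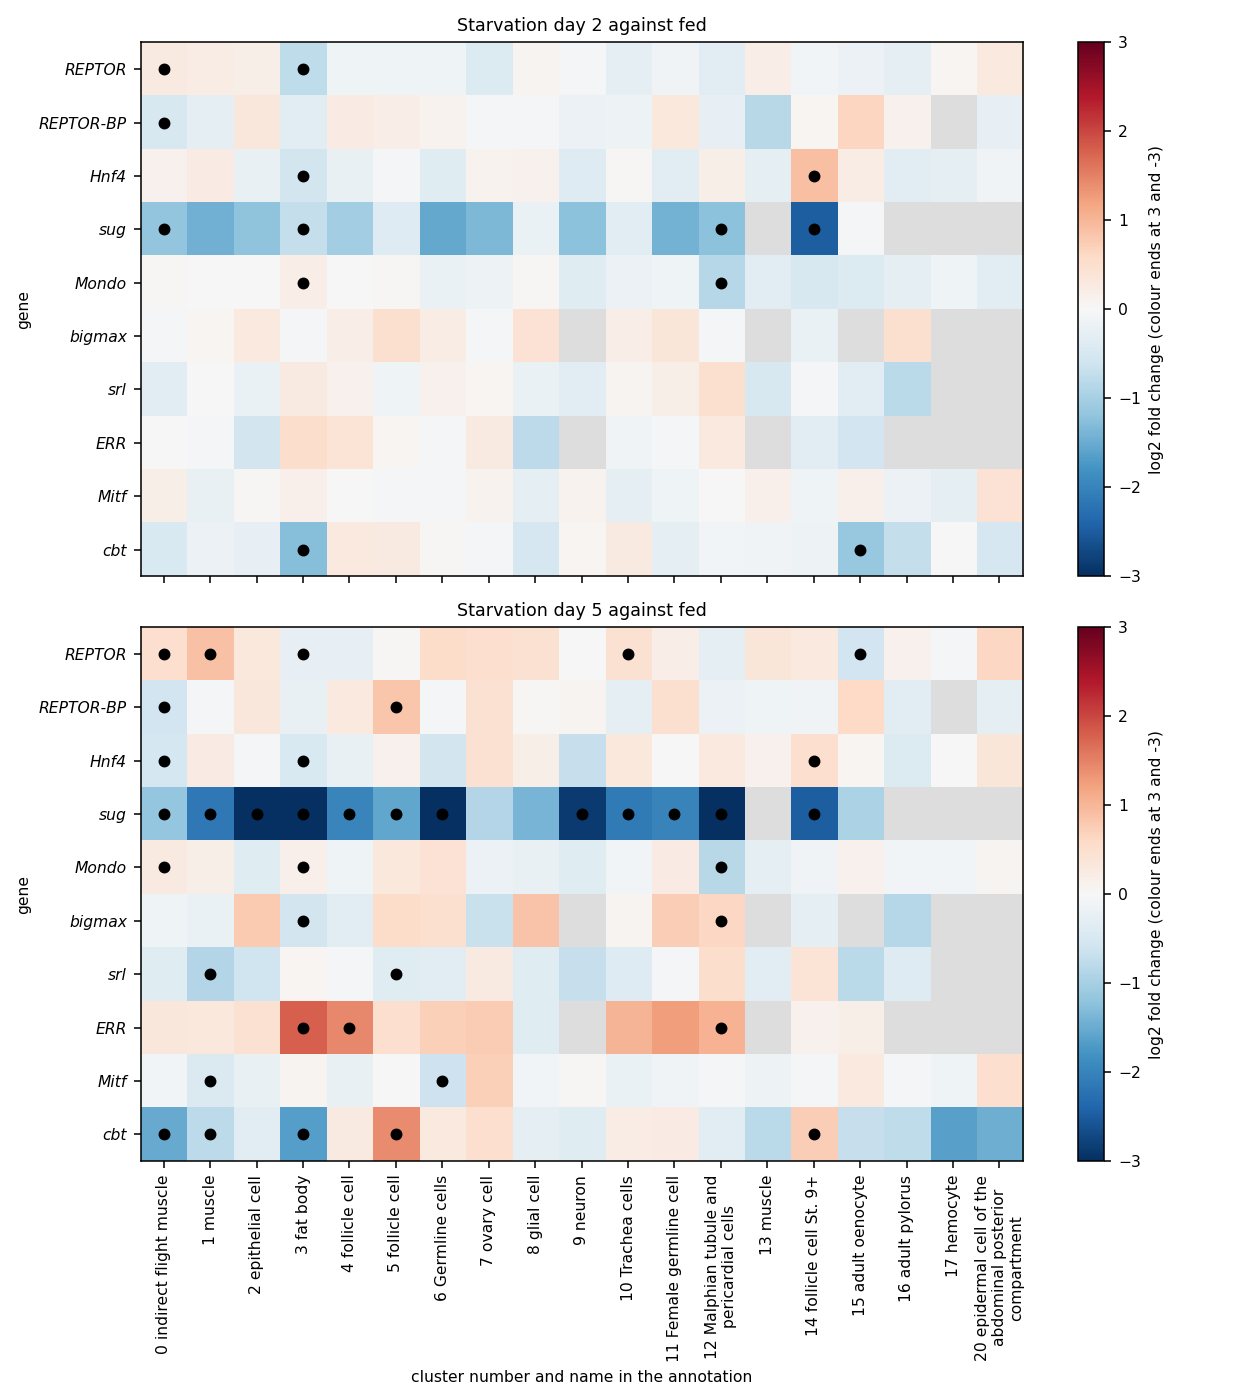
Log2 fold change of the 10 genes (rows) in the 19 tested clusters (columns), starvation day 2 against fed above and day 5 against fed below, red higher and blue lower in starved flies, with a dot where the adjusted p was under 0.05 and grey where the gene was not tested. The row of *sug* is blue in all 15 tested clusters on both days, with 4 dots at day 2 and 12 at day 5.

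*sug*, the sugar-responsive zinc-finger factor, fell at day 5 in 12 of the 15 clusters where it was tested, among them fat body and cluster 12, where its fed level was highest of these 15. In fat body its level was 23.2 and 23.2 UMIs per 10000 in the fed libraries, 14.1 and 14.4 at day 2, and 1.99 and 2.16 at day 5. The 3 groups did not overlap. The log2 fold change was −0.70 ± 0.05 (SE) at day 2 (adjusted p = 1.59e-06) and −3.48 ± 0.05 at day 5 (adjusted p = 9.48e-13), an 11.2-fold decrease. These levels rested on 7680 and 6601 fed UMIs, 3553 and 3581 at day 2, and 284 and 301 at day 5. In fat body *sug* also fell between day 2 and day 5 (log2 fold change −2.78, adjusted p = 1.81e-11), so most of the decrease came after day 2.

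In cluster 12, where *sug* was second highest in fed flies among the clusters tested, its level was 16.2 and 14.6 UMIs per 10000 in the fed libraries, 6.37 and 6.81 at day 2, and 0.301 and 0.211 at day 5. The last of these came from 33 and 21 UMIs, and the groups did not overlap. The log2 fold change was −1.22 ± 0.17 at day 2 (adjusted p = 0.00428; 0.0553 without fed library 1) and −5.90 ± 0.17 at day 5 (adjusted p = 2.33e-06), a 59.9-fold decrease, and day 5 was below day 2 (−4.68, adjusted p = 3.39e-05). The day 5 decrease in cluster 12 exceeded that in fat body on the log2 scale of summed UMIs: the response in fat body minus that in cluster 12 was +2.42 ± 0.27 (adjusted p = 0.0213). Without fed library 1 this difference had an adjusted p of 0.194 and without fed library 2 of 0.178, and on the mean deposited value it was −0.15 (adjusted p = 0.193). In cluster 12 the 5 fat body markers summed to 5.75 and 1.04 UMIs per 10000 at day 5, against 5.50 and 7.88 in fed flies, and their part in the *sug* level there was not tested.

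**Figure D3:**
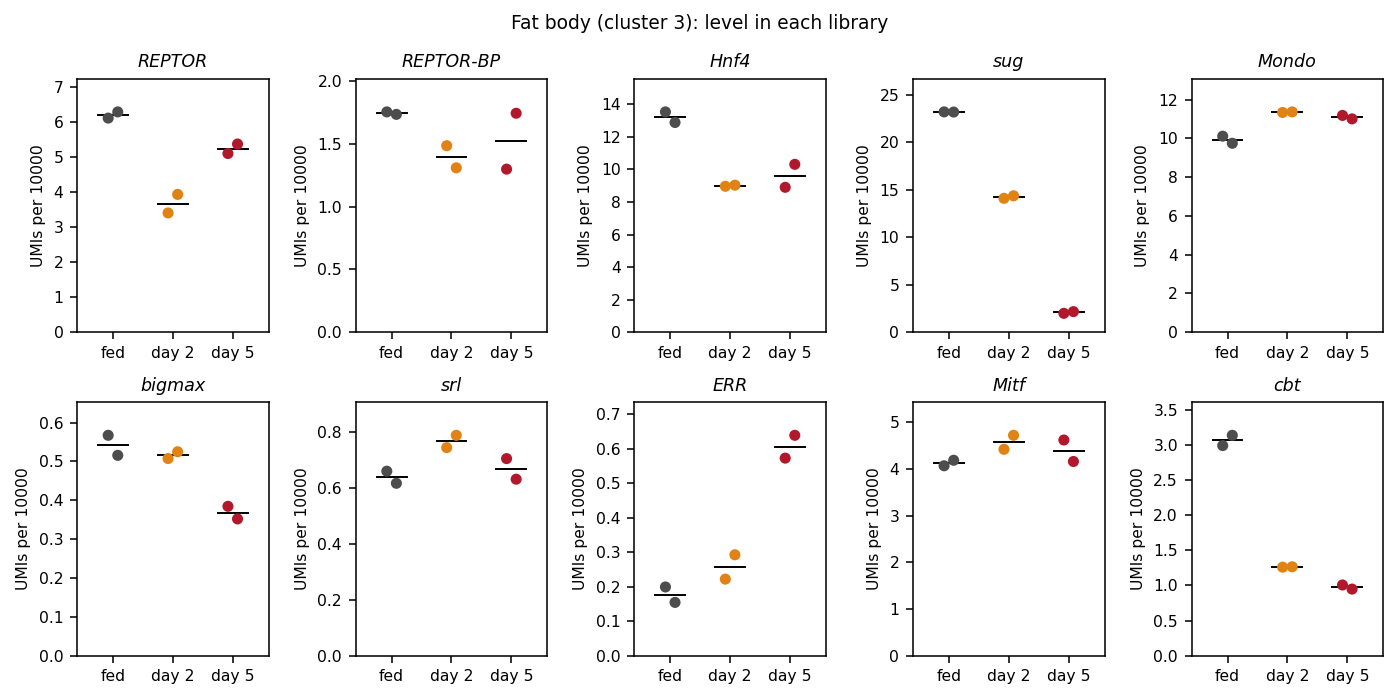
Level of the 10 genes in fat body, in UMIs per 10000, 1 panel per gene with its own axis from 0, 1 point per library and a line at the mean of the 2 libraries each for fed, starvation day 2 and starvation day 5. *sug* was at 1.99 and 2.16 at day 5, against 23.2 in both fed libraries, and *cbt* at 1.01 and 0.948, against 2.99 and 3.14, while *ERR* at day 5 lay above both fed libraries.

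Elsewhere *sug* was low and fell in 10 further clusters at day 5. In flight muscle its level was 0.631 and 0.599 UMIs per 10000 in the fed libraries, 0.262 and 0.274 at day 2, and 0.231 and 0.312 at day 5. It fell by 1.18 ± 0.20 on the log2 scale at day 2 (adjusted p = 0.00293; 0.0586 without fed library 1) and by 1.17 ± 0.20 at day 5 (adjusted p = 0.000878), and all 4 starved libraries lay below both fed ones. In cluster 1 it fell by 2.15 ± 0.39 at day 5 (adjusted p = 0.00163), with 6 and 6 UMIs, against 75 and 59 UMIs in fed flies. In cluster 14 it had 7 and 10 UMIs at day 2 and 3 and 7 at day 5, against 86 and 39 in fed flies (adjusted p = 0.0175 at day 2 and 0.00638 at day 5). Without fed library 1 the adjusted p in cluster 14 was 0.222 at day 2 and 0.107 at day 5, and at day 2 it was 0.0768 without fed library 2, 0.153 without day 2 library 1 and 0.116 without day 2 library 2. Without the tenth of nuclei with most UMIs the change in cluster 14 was −1.43 at day 2 (adjusted p = 0.198) and −1.29 at day 5 (adjusted p = 0.126), against −2.47 and −2.48 with all nuclei.

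In the other 7 of these clusters *sug* was down to 0 to 5 UMIs per library at day 5, so no fold is given. It had 2 and 1 UMIs at day 5, against 59 and 58 in fed flies, in cluster 2 (epithelial cell, adjusted p = 0.000409). It had 2 and 1, against 24 and 40, in cluster 9 (neuron, adjusted p = 0.0125), and 0 and 2, against 56 and 92, in cluster 6 (Germline cells, adjusted p = 0.0262). These 3 clusters had at most 2 UMIs left in any day 5 library. The adjusted p was 0.0178 in cluster 4 (1 and 3 UMIs, against 50 and 60), 0.0189 in cluster 5 (4 and 3, against 29 and 28), 0.0288 in cluster 10 (1 and 3, against 90 and 43) and 0.0431 in cluster 11 (Female germline cell, 3 and 5, against 74 and 49). Apart from cluster 2, these calls did not survive the loss of 1 fed library: the adjusted p without fed library 1 and without fed library 2 was 0.121 and 0.182 in cluster 4, 0.135 and 0.136 in cluster 5, 0.128 and 0.207 in cluster 6, 0.0720 and 0.168 in cluster 9, 0.299 and 0.119 in cluster 10, and 0.441 and 0.191 in cluster 11. Clusters 6, 10 and 11 were also lost without day 2 library 1 (0.0719, 0.0905 and 0.0686) and without day 2 library 2 (0.0708, 0.0949 and 0.0613), and clusters 10 and 11 without the tenth of nuclei with most UMIs (0.162 and 0.115) and on the mean deposited value (0.110 and 0.147). In clusters 7, 8 and 15 *sug* did not pass at day 5 (adjusted p = 0.431, 0.0896 and 0.154).

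Fat body markers moved in the same direction in the median of these 10 clusters. In cluster 9 they did not do so in both libraries, with 18.9 and 2.21 UMIs per 10000 at day 5, against 11.5 and 15.6 in fed flies. The 5 of them (*apolpp*, *Apoltp*, *Lsd-1*, *AkhR* and *Yp1*) summed to a median of 18.9 UMIs per 10000 over the fed libraries of these clusters (7.47 to 22.9), 10.1 at day 2 (5.13 to 13.3) and 4.23 at day 5 (2.04 to 18.9). Set against fat body of the same library, this was a median of 4.0%, 3.75% and 1.93%, while *sug* in these clusters stood at 2.22%, 1.55% and 4.80% of its fat body level. The 5 enterocyte markers, highest in cluster 12, summed to a median of 17.3 UMIs per 10000 in the fed libraries of these clusters. Their median was 9.13 at day 2 and 4.32 at day 5 (2.66 to 61.2). In the fed libraries of flight muscle these markers stood at 41.3% and 44.4% of their cluster 12 level. Eggshell RNA summed to a median of 35.9 UMIs per 10000 in the fed libraries of these clusters, 0.382 at day 2 and 0.123 at day 5. The part of RNA from other cells in the decrease of *sug* outside fat body and cluster 12 was not tested. In the median, *sug* at day 5 was higher relative to fat body than the fat body markers were, and in fed flies it was lower. At day 5 these shares ran from 0% to 16.1% for *sug* and from 0.910% to 8.78% for the markers. Many of the *sug* values at day 5 rested on the few UMIs given above, so its median share is imprecise.

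**Figure D4:**
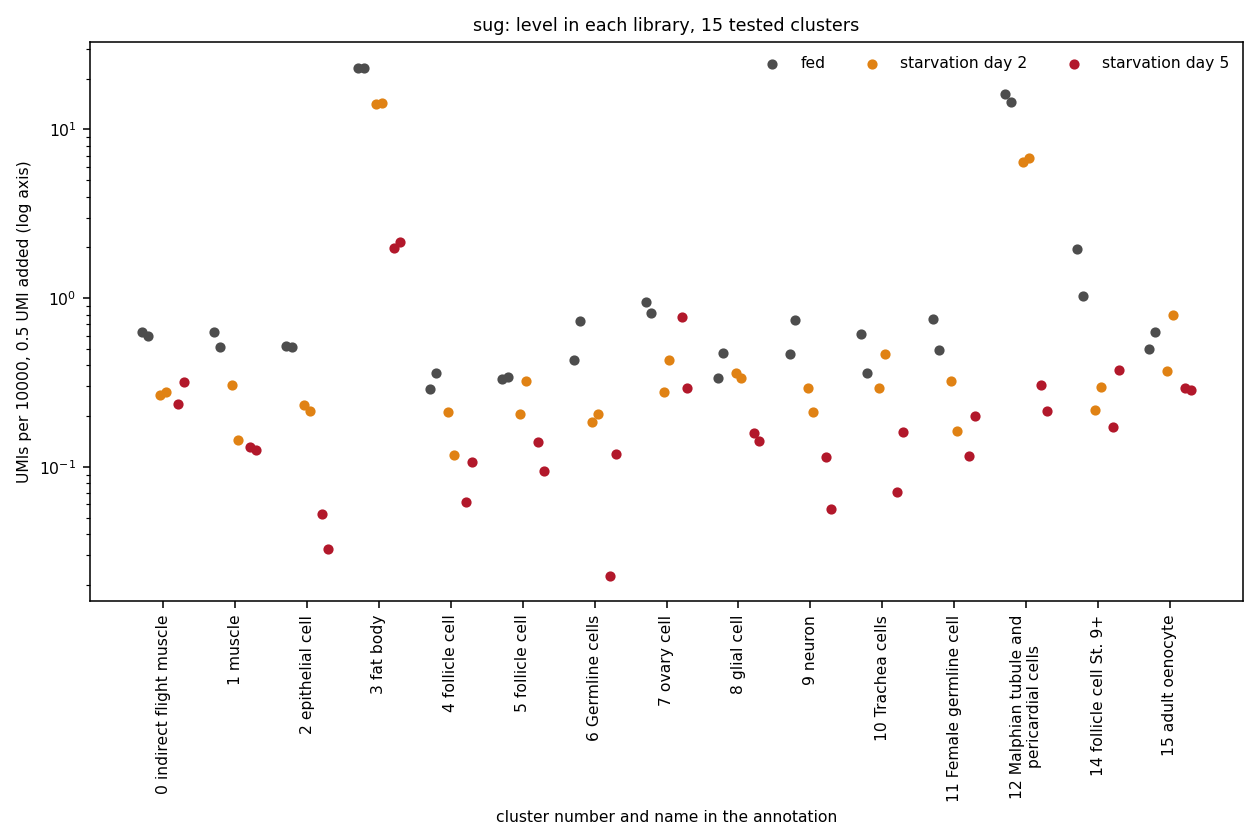
Level of *sug* in the 15 tested clusters, in UMIs per 10000 with 0.5 UMI added on a log axis, 1 point per library, fed in grey, starvation day 2 in orange and starvation day 5 in red. The fed points of fat body and cluster 12 lie above all others, and in the 12 clusters where it passed the test the red points lie below the grey ones.

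*cbt*, the sugar-induced repressor, fell in fat body, flight muscle and cluster 1 and rose in clusters 5 and 14 at day 5. In fat body its level was 2.99 and 3.14 UMIs per 10000 in the fed libraries, 1.26 and 1.27 at day 2, and 1.01 and 0.948 at day 5, with no overlap between groups. The log2 fold change was −1.28 ± 0.09 at day 2 (adjusted p = 4.81e-07) and −1.65 ± 0.09 at day 5 (adjusted p = 1.93e-08), so that here, unlike for *sug*, the larger step lay before day 2. In flight muscle it was 1.24 and 1.13 in the fed libraries, 0.943 and 0.791 at day 2, and 0.409 and 0.413 at day 5. There it fell at day 5 (−1.51 ± 0.14, adjusted p = 5.94e-06) and did not pass at day 2 (−0.45, adjusted p = 0.0760). In cluster 1 it fell to 0.670 and 0.520 at day 5, against 1.03 and 1.03 in fed flies (−0.79 ± 0.19, adjusted p = 0.0105; 0.0884 without fed library 1 and 0.0800 without fed library 2).

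The increases of *cbt* were in cluster 5, where it had 1.59 and 1.17 UMIs per 10000 at day 5, against 0.485 and 0.527 in fed flies (+1.43 ± 0.22, adjusted p = 0.000728), and in cluster 14, where it had 5.85 and 6.87, against 4.17 and 3.51 (+0.73 ± 0.18, adjusted p = 0.0207). The increase in cluster 14 had an adjusted p of 0.147 without fed library 2 and of 0.118 without day 5 library 2. In both clusters the day 5 libraries also lay above those of day 2 (adjusted p = 0.00353 in cluster 5 and 0.0129 in cluster 14), and in cluster 14 this step had adjusted p of 0.129, 0.0716 and 0.0719 without day 2 library 1, day 2 library 2 and day 5 library 2. The overlapping gene *ush* fell in cluster 14 (−0.83 at day 2 and −0.96 at day 5), opposite to *cbt*. In cluster 12 *cbt* had 1.68 and 1.84 at day 5, against 2.20 and 2.23 in fed flies (−0.33, adjusted p = 0.0844). The day 5 response in fat body minus that in cluster 12 was −1.32 ± 0.18 (adjusted p = 0.0310), but the adjusted p was 0.214 without fed library 1, 0.223 without fed library 2 and 0.0610 to 0.0757 without 1 of the 4 starved libraries.

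*Mondo*, the sugar sensor, passed in 3 of 19 clusters at day 5 and fell in 1 of them, cluster 12. There its level was 7.45 and 7.72 UMIs per 10000 in the fed libraries, 4.26 and 4.13 at day 2, and 4.66 and 3.86 at day 5. Both starved groups lay below the fed one, with log2 fold changes of −0.86 ± 0.11 at day 2 (adjusted p = 0.00324) and −0.84 ± 0.11 at day 5 (adjusted p = 0.00178). The overlapping *Gr39a* fell in the same cluster (−0.92 at day 2 and −1.38 at day 5). In fat body *Gr39a* rose at day 2 (+0.58, adjusted p = 0.00137) and did not pass at day 5 (−0.20, adjusted p = 0.163). In fat body *Mondo* was 10.1 and 9.75 in the fed libraries, 11.3 and 11.4 at day 2, and 11.2 and 11 at day 5, small increases of +0.19 ± 0.05 (adjusted p = 0.0108) and +0.16 ± 0.05 (adjusted p = 0.0189). In flight muscle it was 1.80 and 1.82 at day 5, against 1.5 and 1.51 in fed flies (+0.27 ± 0.09, adjusted p = 0.0356).

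These small increases of *Mondo* were not stable to leaving out a library. In fat body at day 2 the adjusted p was 0.132 without fed library 2, 0.0704 without day 2 library 1 and 0.0743 without day 2 library 2. In fat body at day 5 it was 0.0554 without fed library 1 and 0.163 without fed library 2. In flight muscle it was 0.166 and 0.15 without fed libraries 1 and 2, and 0.0575 and 0.0791 without day 5 libraries 1 and 2. *bigmax*, its partner, fell in fat body at day 5, with 0.384 and 0.352 UMIs per 10000, against 0.567 and 0.516 in fed flies (−0.55 ± 0.14, adjusted p = 0.0102; 0.105 without fed library 1). In cluster 12 it had 0.849 and 1.07 at day 5, against 0.570 and 0.675 (+0.62 ± 0.17, adjusted p = 0.0429). This call was lost without fed library 1 (0.266), fed library 2 (0.111), day 5 library 2 (0.141), day 2 library 1 (0.0629) and day 2 library 2 (0.0638). *Mondo* and *bigmax* thus had opposite signs at day 5 both in fat body and in cluster 12.

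*REPTOR*, the factor held back by TORC1, rose in flight muscle, cluster 1 and cluster 10 and fell in fat body and oenocytes. In flight muscle its level was 8.17 and 8.10 UMIs per 10000 in the fed libraries, 10.1 and 9.52 at day 2, and 11.4 and 11.5 at day 5, with no overlap between groups. The log2 fold change was +0.27 ± 0.05 at day 2 (adjusted p = 0.00315) and +0.49 ± 0.05 at day 5 (adjusted p = 7.39e-06). In cluster 1 it was 6.90 and 6.31 in the fed libraries, 7.35 and 8.01 at day 2, and 12.6 and 11.7 at day 5 (+0.88 ± 0.08 at day 5, adjusted p = 7.73e-06). Over the 19 clusters 14 log2 fold changes were positive at day 5, with a median of +0.28. In cluster 10, its highest cluster, *REPTOR* had 16.6 and 15.4 at day 5, against 11.4 and 11.8 in fed flies (+0.47 ± 0.09, adjusted p = 0.0137), which did not pass without fed library 1 (0.137), fed library 2 (0.106), day 2 library 1 (0.0569) or day 2 library 2 (0.0565). The overlapping *lncRNA:CR46094* rose in flight muscle (+1.23) and cluster 1 (+2.04) at day 5.

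In fat body *REPTOR* had 6.11 and 6.29 UMIs per 10000 in the fed libraries, 3.41 and 3.94 at day 2, and 5.10 and 5.37 at day 5. It was lowest at day 2 (−0.76 ± 0.07, adjusted p = 1.09e-05) and nearer to the fed level at day 5 (−0.24 ± 0.07, adjusted p = 0.0223), and the increase between the days passed (+0.52, adjusted p = 0.000226). The day 5 call in fat body did not pass without fed library 1 (0.0828), fed library 2 (0.143) or day 5 library 1 (0.0761), nor with median-ratio scaling (−0.18, adjusted p = 0.0792). In oenocytes *REPTOR* had 6.11 and 6.68 at day 5, against 8.87 and 10.1 in fed flies (−0.57 ± 0.14, adjusted p = 0.0183; 0.155 without fed library 2, 0.0585 without day 5 library 1 and 0.0692 with median-ratio scaling). *REPTOR-BP*, its partner, fell in flight muscle, with 1.36 and 1.24 in the fed libraries, 0.913 and 0.932 at day 2, and 0.861 and 0.886 at day 5 (−0.49 ± 0.11, adjusted p = 0.0180, and −0.57 ± 0.11, adjusted p = 0.00217). The day 2 call was lost without fed library 1 (0.242), fed library 2 (0.0844), day 2 library 1 (0.0919) and day 2 library 2 (0.0751), and the day 5 call with median-ratio scaling (−0.23, adjusted p = 0.134). In cluster 5 *REPTOR-BP* had 1.87 and 1.28 at day 5, against 0.801 and 0.947 (+0.83 ± 0.21, adjusted p = 0.0153; 0.144 without fed library 1 and 0.0502 without day 5 library 1). The partners therefore moved in opposite directions in flight muscle.

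**Figure D5:**
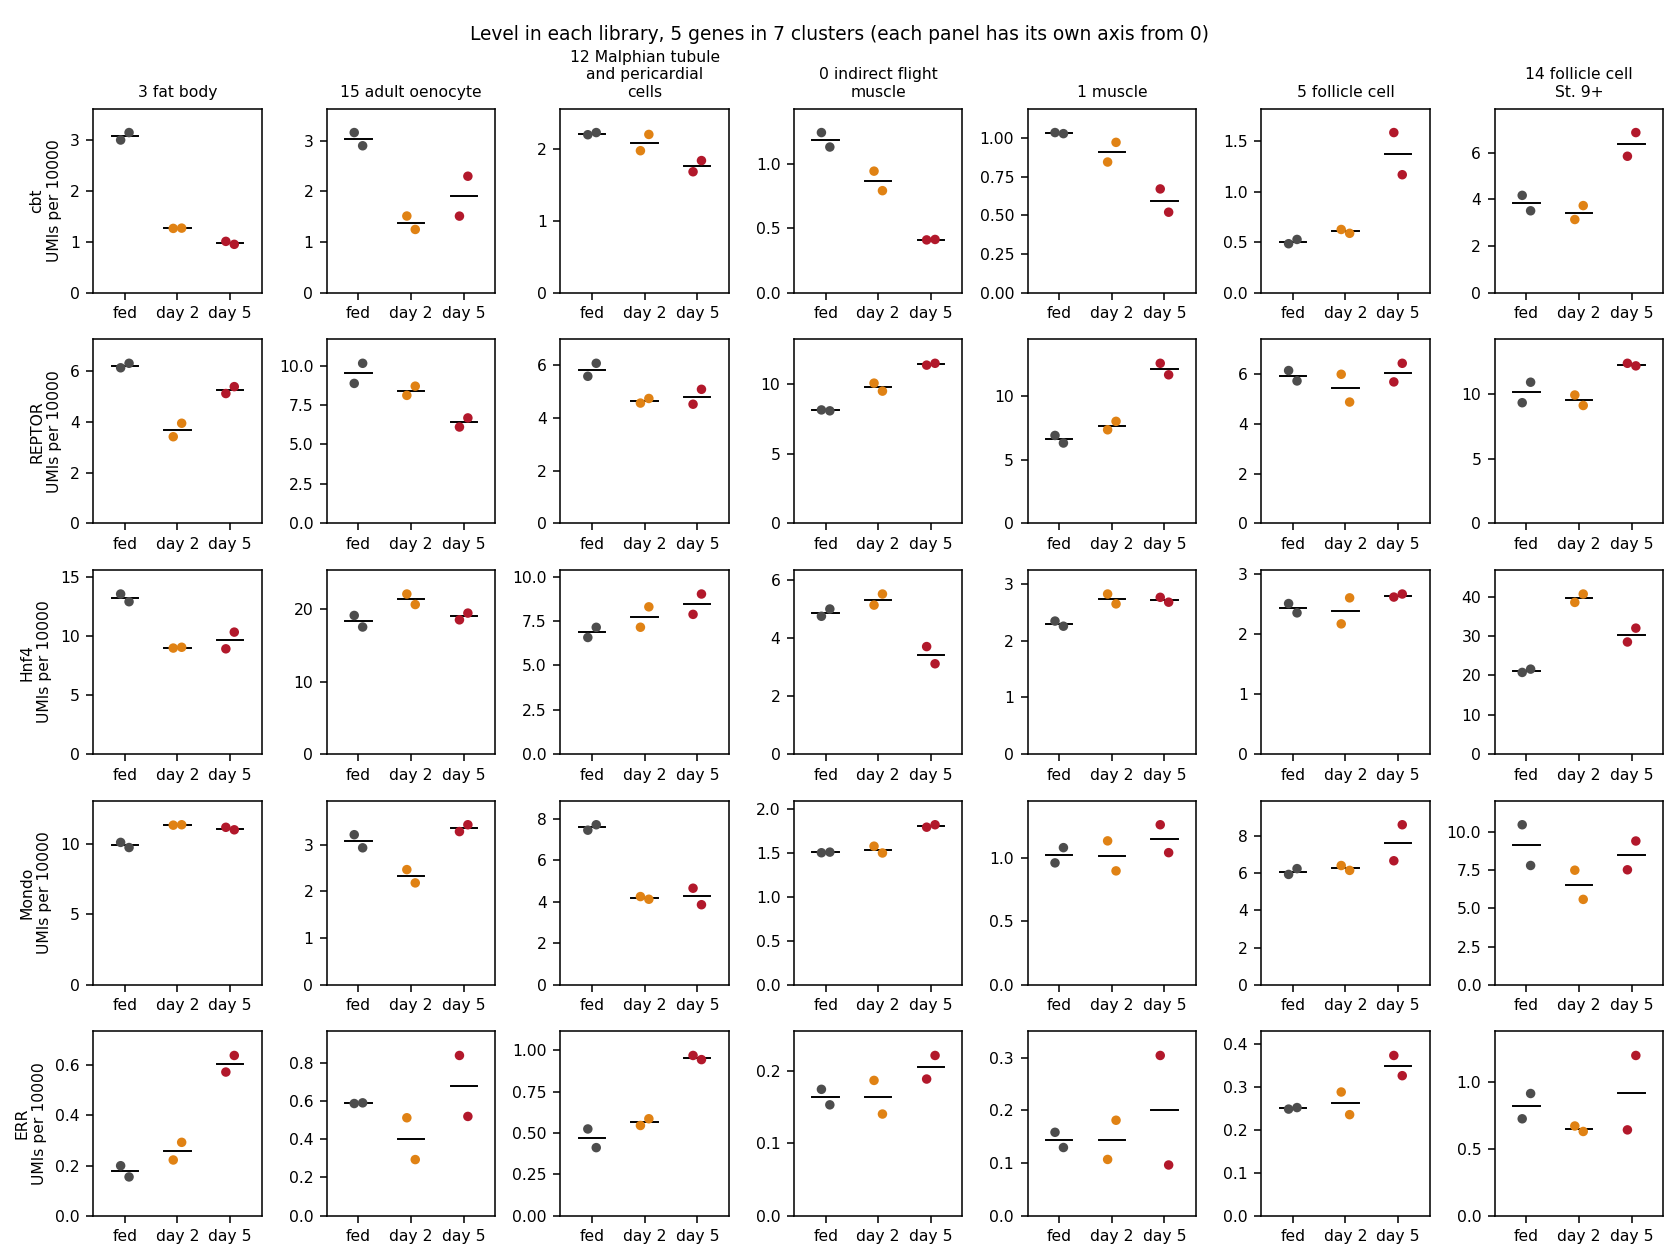
Levels of *REPTOR*, *Hnf4*, *Mondo*, *cbt* and *ERR* in fat body, oenocytes, cluster 12, flight muscle and clusters 1, 5 and 14, in UMIs per 10000, each panel on its own axis from 0, with 1 point per library and a line at the mean of the 2 libraries each for fed, starvation day 2 and starvation day 5. *REPTOR* was at 11.4 and 11.5 in flight muscle at day 5, against 8.17 and 8.10 in fed flies, and at 3.41 and 3.94 in fat body at day 2, against 6.11 and 6.29.

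*Hnf4*, the nuclear receptor for fat breakdown, fell in fat body and rose in cluster 14. In fat body its level was 13.5 and 12.9 UMIs per 10000 in the fed libraries, 8.97 and 9.04 at day 2, and 8.91 and 10.3 at day 5. The fed libraries lay above all 4 starved ones, with −0.55 ± 0.06 at day 2 (adjusted p = 5.68e-05) and −0.46 ± 0.06 at day 5 (adjusted p = 0.000139). In cluster 14 it was 20.8 and 21.6 in the fed libraries, 38.6 and 40.7 at day 2, and 28.5 and 32.0 at day 5 (+0.90 ± 0.11, adjusted p = 0.00117, and +0.51 ± 0.11, adjusted p = 0.0108). The day 5 call in cluster 14 did not pass without fed library 1 (0.0630), fed library 2 (0.0501) or day 5 library 2 (0.0889). In flight muscle *Hnf4* was 4.76 and 5.02 in the fed libraries, 5.15 and 5.53 at day 2, and 3.72 and 3.12 at day 5. It fell there at day 5 against fed flies (−0.52 ± 0.08, adjusted p = 0.000515) and against day 2 (−0.65, adjusted p = 0.000134), but with median-ratio scaling the change against fed flies was −0.18 (adjusted p = 0.122). In cluster 12 *Hnf4* did not pass at day 5 (+0.30, adjusted p = 0.0978).

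*srl* fell in 2 clusters at day 5, and 13 of its 17 log2 fold changes at day 5 were negative, with a median of −0.36. Over all genes the median at day 5 lay between −0.41 and +0.04 in the 19 clusters, and 63.6% of all calls were lower. In cluster 5, where its fed level was high, it had 3.61 and 4.05 UMIs per 10000 at day 5, against 4.86 and 5.07 in fed flies (−0.37 ± 0.10, adjusted p = 0.0253). In cluster 1 it had 0.325 and 0.212, against 0.517 and 0.475 (−0.88 ± 0.30, adjusted p = 0.0478). Neither call passed with median-ratio scaling (−0.22, adjusted p = 0.201, in cluster 5 and −0.69, adjusted p = 0.105, in cluster 1) or without the tenth of nuclei with most UMIs (adjusted p = 0.0875 and 0.106), and both were lost when single libraries were left out. In cluster 5 the adjusted p was 0.111 without fed library 1, 0.167 without fed library 2 and 0.0550 without day 5 library 1. In cluster 1 it was 0.247 and 0.174 without fed libraries 1 and 2, 0.0646 and 0.0719 without day 2 libraries 1 and 2, and 0.159 without day 5 library 2. In fat body *srl* did not pass at day 5 (+0.07, adjusted p = 0.706).

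*ERR* rose at day 5 in fat body, cluster 12 and cluster 4. In fat body its level was 0.199 and 0.154 UMIs per 10000 in the fed libraries (66 and 44 UMIs), 0.222 and 0.293 at day 2 (56 and 73 UMIs), and 0.573 and 0.639 at day 5 (82 and 89 UMIs). The day 5 libraries lay above all others, with a log2 fold change of +1.78 ± 0.20 against fed flies (adjusted p = 2.47e-05), a 3.44-fold increase, and +1.25 against day 2 (adjusted p = 0.000678). In cluster 12 it had 0.968 and 0.943 at day 5, against 0.524 and 0.411 in fed flies (+1.04 ± 0.17, adjusted p = 0.00532; 0.0532 without fed library 2). In cluster 4 it had 0.498 and 1.17, against 0.270 and 0.304 (+1.44 ± 0.36, adjusted p = 0.0264), a call lost without fed library 1 (0.183), fed library 2 (0.135), day 2 library 1 (0.0616) and day 2 library 2 (0.0619). The overlapping *Uxs* also rose in cluster 12 at day 5 (+1.85, adjusted p = 0.0285). It did not pass in fat body (+0.53, adjusted p = 0.147) or cluster 4 (+0.40, adjusted p = 0.449). At day 5, 13 of 14 log2 fold changes of *ERR* were positive, with a median of +0.61, and at day 2, 6 of 14 were. The day 5 response in fat body minus that in flight muscle was +1.44 ± 0.30 (adjusted p = 0.0419), which did not pass when any 1 library was left out (adjusted p from 0.0514 to 0.209).

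*Mitf*, the lysosome regulator, passed against fed flies in 2 clusters, both at day 5. It fell in cluster 1 at day 5, with 2.78 and 3.0 UMIs per 10000, against 3.79 and 4.03 in fed flies (−0.43 ± 0.11, adjusted p = 0.0107; 0.0527 without fed library 1 and 0.104 without fed library 2). It also fell in cluster 6, with 2.31 and 2.74, against 3.89 and 3.90 (−0.62 ± 0.14, adjusted p = 0.0278). The call in cluster 6 was lost without fed library 1 (0.174), fed library 2 (0.190), day 2 library 1 (0.0677) and day 2 library 2 (0.0679). With median-ratio scaling neither passed (−0.25, adjusted p = 0.113, in cluster 1 and −0.36, adjusted p = 0.124, in cluster 6), and *Mitf* in flight muscle at day 5, −0.08 with totals, was +0.25 (adjusted p = 0.0397). Between the days it fell in cluster 6 (−0.57, adjusted p = 0.0363) and in flight muscle, with 3.86 and 3.22 UMIs per 10000 at day 5, against 4.36 and 4.12 at day 2 (−0.26, adjusted p = 0.0361). With median-ratio scaling these steps were −0.35 (adjusted p = 0.127) and −0.01 (adjusted p = 0.960), so neither passed. In fat body *Mitf* did not pass at day 5 (+0.09, adjusted p = 0.370), and at day 2 none of its 19 tests passed or had an unadjusted p under 0.05 in limma.

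Oenocytes, the cells the driver marks, gave 2 calls for 9 factors tested on both days. *cbt* had 1.51 and 1.25 UMIs per 10000 at day 2, against 3.16 and 2.90 in fed flies (−1.13 ± 0.24, adjusted p = 0.0160). It was lost without fed library 1 (0.119), fed library 2 (0.109), day 2 library 1 (0.0707) and day 2 library 2 (0.122), and at day 5 *cbt* did not pass (−0.69, adjusted p = 0.0792). The other call was the decrease of *REPTOR* at day 5 given above. *Hnf4*, with 661 and 710 UMIs at day 5, against 1203 and 622 in fed flies, had 18.5 and 19.4 per 10000, against 19.1 and 17.5 (+0.05, adjusted p = 0.790), so its libraries overlapped. The overlapping *asRNA:CR44992* rose there (+1.40 at day 2, adjusted p = 0.00173, and +0.80 at day 5, adjusted p = 0.0193). *REPTOR-BP* had log2 fold changes of +0.65 (adjusted p = 0.2) at day 2 and +0.61 (adjusted p = 0.158) at day 5, and *sug* of −0.05 (adjusted p = 0.971) and −0.95 (adjusted p = 0.154), the day 5 value from 10 and 10 UMIs, against 31 and 22. The cluster held 458 nuclei in 6 libraries, and its fed libraries differed in eggshell RNA, with 19.2 and 77.0 UMIs per 10000, against 0.171 or less in every starved library. Neither *srl* (−0.81 at day 5, adjusted p = 0.276) nor *Mondo* (−0.40 at day 2, adjusted p = 0.238) passed there.

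Differences between clusters in the response were tested for the same 5 pairs. None of 48 tests of these genes passed at day 2, where 13 had an unadjusted p under 0.05 in limma, beside 0.0904% of all genes tested. At day 5, 5 of 48 passed, beside 6.44% of all genes, and between the days 1 of 48, beside 0.427%. Besides the differences of *sug*, *cbt* and *ERR* given above, the change of *sug* was smaller in oenocytes than in cluster 12 (oenocytes minus cluster 12 +4.95 ± 0.44, adjusted p = 0.0174), with the low fed level of *sug* in oenocytes set beside the fat body markers above. The change of *sug* was larger in fat body than in flight muscle (fat body minus flight muscle −2.31 ± 0.19, adjusted p = 0.0131). The difference between fat body and flight muscle was also found from day 2 to day 5 (−2.79 ± 0.19, adjusted p = 0.0335). Without fed library 1 and without fed library 2 the adjusted p was 0.124 and 0.154 for oenocytes with cluster 12, 0.127 and 0.138 for fat body with flight muscle at day 5, and 0.185 and 0.184 from day 2 to day 5. The first of these was also lost without day 5 library 1 (0.0510) and day 5 library 2 (0.0522), and the last without day 2 library 1 (0.196), day 2 library 2 (0.191) and day 5 library 2 (0.0506). Between fat body and oenocytes none of the 9 genes tested in both passed at day 5, where 4 had an unadjusted p under 0.05 in limma.

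Genes of the pathways around these factors were counted from lists chosen with the factors, with earlier results of these data known. In fat body, 15 fatty acid oxidation and lipase genes linked to Hnf4 were tested, where 20.8% of all genes passed at day 2 and 34.5% at day 5. Of these 15 genes, 10 rose and 0 fell at day 2, and 1 rose and 13 fell at day 5. The gene that rose on both days was the lipase *bmm* (log2 fold change +1.86 at day 2, adjusted p = 9.85e-10, and +2.56 at day 5, adjusted p = 2.13e-11). *whd*, the carnitine palmitoyltransferase, rose at day 2 (+0.81, adjusted p = 2.36e-07), and *Mcad* (−2.74, adjusted p = 1.96e-09) and *scu* (−2.05, adjusted p = 4.91e-09), which act in beta-oxidation, fell at day 5. The median of the list was +0.53 at day 2 and −1.06 at day 5, beside +0.06 and −0.08 over all genes of fat body. The same list fell in cluster 12 at day 5 in 9 of 15 genes with none higher, where 19.7% of all genes passed. Its median there was −0.81, beside +0.02 over all genes. In flight muscle, where 40.3% of all genes passed, the list fell in 10 of 15 with 2 higher, *bmm* among them (+2.67, adjusted p = 1.07e-08). The median in flight muscle was −0.82, beside −0.41 over all genes. In oenocytes none of the 9 tested genes of the list passed on either day, 2 having an unadjusted p under 0.05 at day 2 and 1 at day 5 in limma. Of all oenocyte genes 6.27% passed at day 2 and 14.0% at day 5.

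Of 13 lipogenic and sugar-handling genes linked to Mondo and Bigmax, 9 rose and 3 fell on each day in fat body, where 20.8% and 34.5% of all genes passed. The median of the list was +0.59 at day 2 and +1.03 at day 5, beside +0.06 and −0.08 over all genes. *ACC*, which makes malonyl-CoA, rose (+0.54 at day 2, adjusted p = 3.24e-06, and +1.21 at day 5, adjusted p = 9.84e-10), as did the desaturase *Desat1* at day 5 (+1.38, adjusted p = 3.74e-09) and the hexokinase *Hex-C* at day 2 (+1.72, adjusted p = 4.27e-08). *Gpdh1*, the glycerol 3-phosphate dehydrogenase, fell (−0.59 at day 2, adjusted p = 5.56e-05, and −1.75 at day 5, adjusted p = 1.35e-09), and so did *Aldh-III* at day 5 (−2.22, adjusted p = 1.04e-09). The list thus rose in most of its members on both days in fat body, where *sug* and *cbt* fell. In oenocytes 1 of its 11 tested genes rose at day 5, *Desat1* (+0.41, adjusted p = 0.0488), and 4 fell, among them *Tret1-1*, a trehalose transporter (−2.52, adjusted p = 3.28e-05), where 14.0% of all genes passed and the median was +0.10 for the list and −0.16 for all genes.

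Of the carbohydrate-digesting genes linked to *sug* that passed in fat body, cluster 12, flight muscle and cluster 1, all but 1 rose. In oenocytes only 3 of the list were tested and none passed on either day, where 6.27% and 14.0% of all genes did. In cluster 12, where 11.3% and 19.7% of all genes passed, 9 of 11 rose at day 2 and 8 at day 5 with none lower (median +1.53 and +2.09, beside +0.13 and +0.02 over all genes), led by the maltase *Mal-A4* (+3.41 at day 2, adjusted p = 0.000255, and +3.82 at day 5, adjusted p = 6.34e-05) and at day 5 by *tobi*, an alpha-glucosidase (+2.09, adjusted p = 0.000124). In fat body 4 of 8 rose on each day (median +1.24 and +1.09), *tobi* by +2.56 and +2.26. In flight muscle, where 40.3% of all genes passed at day 5, 7 of 10 rose (median +1.72, beside −0.41 over all genes) and 1 fell, *Mal-A5* (−1.01, adjusted p = 0.000819). In flight muscle the 5 enterocyte markers summed to 8.84 and 7.83 UMIs per 10000 at day 5, against 33.3 and 33.7 in fed flies, lower as *tobi* rose (+3.40, adjusted p = 1.29e-07), and the part of RNA from cluster 12 in these values was not tested. Of 13 glycolytic genes linked to ERR, 8 rose and 0 fell in fat body at day 5, among them *Pgi* (+1.77, adjusted p = 5.96e-08) and *Ald1* (+0.84, adjusted p = 3.42e-08), and 8 rose and 0 fell in cluster 12. The median was +0.39 in fat body and +0.67 in cluster 12. In flight muscle 2 rose and 10 fell, with a median of −0.44, near that of all genes, and with *Treh* among those lower (−1.03, adjusted p = 7.72e-06). At day 2, 8 of these 13 genes had already risen and 1 had fallen in fat body (median +0.36). In cluster 12, 4 had risen and 0 had fallen at day 2 (median +0.60). Of all fat body genes 20.8% passed at day 2 and 34.5% at day 5. *ERR* itself passed in 0 of 14 clusters at day 2. At day 5 it rose in fat body and cluster 12 and did not pass in flight muscle.

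The lists around Spargel, Mitf and TORC1 are set here beside the 20.8% and 34.5% of all fat body genes that passed at day 2 and day 5. Of 12 mitochondrial genes linked to Spargel, 6 rose at day 2 and 2 at day 5 with none lower in fat body (median +0.40 and +0.25), *kdn*, the citrate synthase, on both days (+0.92 and +0.50). In flight muscle 11 of 14 fell at day 5, such as *SdhA* (−1.04, adjusted p = 3.47e-06), with a median of −0.94, beside −0.41 over all genes, of which 40.3% passed. Of 16 lysosome, V-ATPase and autophagy genes linked to Mitf, 6 fell and 0 rose in fat body at day 2, among them *Atg8a* (−0.92, adjusted p = 5.1e-07), and 2 rose and 3 fell at day 5 (median −0.19 and +0.06). Of 13 TORC1 pathway genes in fat body, 1 rose and 2 fell at day 2, and 0 rose and 2 fell at day 5, both times *Thor*, the 4E-BP homologue (−0.42 and −1.03), and *S6k* (−0.74 and −0.47). This count was near the share of all genes at day 2 and below it at day 5, and the median of the list was +0.13 and +0.12. *Thor* rose at day 5 in flight muscle (+1.82, adjusted p = 1.27e-10), in cluster 1 (+2.23, adjusted p = 4.02e-09) and in oenocytes (+2.16, adjusted p = 0.000706). *REPTOR* also rose at day 5 in flight muscle and cluster 1 and fell in oenocytes, and in fat body its change was −0.76 at day 2 and −0.24 at day 5.

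Other nutrient-linked transcription factors also moved. In fat body 7 of 14 rose and 4 fell at day 5 (median +0.27, beside −0.08 over all genes, of which 34.5% passed), with *CrebB* (+1.09, adjusted p = 2.68e-07) and *foxo* (+0.57, adjusted p = 3.46e-07) higher and *Atf3* (−0.80, adjusted p = 6.41e-05) and *crc*, the ATF4 homologue (−0.35, adjusted p = 0.00684), lower. In flight muscle 5 of 13 rose and 3 fell (median +0.04, beside −0.41 over all genes, of which 40.3% passed), with *foxo* (+1.41, adjusted p = 1.33e-09) and *Myc* (+1.25, adjusted p = 5.61e-08) higher. In cluster 1, 6 of 13 rose and none fell (median +0.37, beside −0.23 over all genes, of which 25.6% passed), *SREBP*, the sterol-regulated lipogenic factor, among them (+1.42, adjusted p = 1.92e-05). In oenocytes, where 14.0% of all genes passed, 3 of 11 rose (median +0.45, beside −0.16), *Myc* among them (+1.14, adjusted p = 0.00238), and 1 fell, *svp* (−1.20, adjusted p = 4.96e-05). *Myc* thus rose in oenocytes, cluster 12, flight muscle and cluster 1.

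Genes with the most similar fed pattern over the 26 clusters were sought among 7146 genes, by Pearson's r of log2 levels, as a description in which all points share the same libraries. For *srl* they were *CG7839* (0.95), *CG4554* (0.94) and *Nop60B* (0.93), a component of box H/ACA ribonucleoproteins. For *sug* they were *CG7470* (0.92), *CG11309* (0.89) and *CG10621* (0.88). *Mondo* was most like its overlapping neighbour *Gr39a* (0.91), and *Hnf4* and *cbt* each appeared among the genes most like the other (0.80). *Mitf* had the loosest match (*pes*, 0.62). Over the log2 fold changes of both days, *sug* was most like *CG30377* (0.73 over 30 points) and *whd* (0.71), *REPTOR* most like the polyubiquitin gene *Ubi-p63E* (0.75 over 38 points) and *srl* most like *Nop60B* (0.72 over 34 points), which was thus close to *srl* on both measures.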

How the data were processed

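Single-nucleus RNA was measured in 2 libraries each of fed flies, flies at day 2 and flies at day 5 of starvation. The authors made 10x 3′ libraries from nuclei sorted by DRAQ7 stain, counted with Cell Ranger 6.1.1 and brought the libraries to an equal read depth in 1 matrix, and the submitters' processing notes name build BDGP6 and Seurat. They deposited natural log values of 12925 genes by 43027 nuclei, fewer nuclei than the study states, and a table of the cluster and condition of each nucleus. From these natural log values UMIs were worked back (99.9568% of the nonzero values were within 0.05 of a whole number, and 95.17% of the values were given back within 0.001), since the step between UMIs and deposited values is not given in the sources used here. Nuclei were assigned to libraries by barcode suffix, with groups taken from the sample titles, and no column of values was left unmapped. No doublet caller was run, and cell types are those of the deposited annotation.

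UMIs were summed per library and cluster, the sums were raised by 0.5 and the totals by 1, and log2 levels per 10000 were fitted with limma 3.58.1 (trended eBayes) in R 4.3.3, with all 6 libraries and 3 groups, in each of 19 clusters. Differences between clusters were fitted on within-library differences. The fits were also run on simulated sums with independent libraries. Libraries of a group here may not be independent, and no result above rests on that run. All 10 genes were described in every cluster, with up to 2 genes per direction by smallest adjusted p named from each pathway list. The genes and lists were chosen with earlier results of these data known. Alternatives were the mean deposited value, median-ratio scaling, no filter, a filter of 10 UMIs, 2 UMIs added, only the 4 libraries compared, a replicate block, leaving out the 10 percent of nuclei with most UMIs and leaving out each library. Counting noise limits the precision of low genes. Sequences were not used here.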

Additional observations from a re-analysis of the deposited data

Results flagged for a closer look

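Responses to starvation that differed between 2 clusters by a test of the difference itself numbered 6, and all concern *sug*, *cbt* or *ERR*. For *sug*, the log2 fold change at day 5 against fed flies was lower in fat body than in flight muscle by −2.31, higher in fat body than in cluster 12 by +2.42, and higher in oenocytes than in cluster 12 by +4.95. From day 2 to day 5 the change of *sug* in fat body minus that in flight muscle was −2.79. For *cbt* the day 5 response in fat body minus that in cluster 12 was −1.32, and for *ERR* that in fat body minus that in flight muscle was +1.44. None of the 6 passed when fed library 1 or fed library 2 was left out, with adjusted p (limma) from 0.124 to 0.223, or without the filter on low values. No explanation for these differences was tested.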

How the results depend on the processing

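At day 2, 13 calls became 22 with only the 4 libraries compared and 8 to 23 when a library was left out. At day 5, 39 calls became 18 to 53 when a library was left out, the lowest without either fed library. Between the days, 18 calls became 10 to 36. Of differences between clusters in the response against fed flies, 5 calls became 30 on the mean deposited value, 3 with only the 4 libraries compared, 0 without the filter on low values and 0 to 3 when a library was left out. The day 5 response of *sug* in fat body minus that in cluster 12 changed sign on the mean deposited value, to −0.15, and the cause was not tested. All other called values of the 10 genes kept their direction under every alternative that could be fitted. With 2 UMIs added or a filter of 10 UMIs, all 70 single calls of these genes passed as before. Without fed library 1, 39 of the 70 passed, and without fed library 2, 41. The fit of *sug* in cluster 9 without the nuclei with most UMIs was not run, because too few nuclei were left with a UMI. Median-ratio scaling moved the median of all genes by over 0.1 on the log2 scale in 6 of 19 clusters at day 5, by −0.10 to 0.34, in 1 at day 2 and in 9 between the days, and the share of lower calls between the days was 23.8% for these genes and 43.8% for all genes, against 55.6% and 65.3% with totals. With a replicate block the calls were 13 at day 2, 38 at day 5, 16 between the days and 2 for differences between clusters. The replicate numbers do not pair the libraries, since correlations of same-numbered deviations lay between −0.07 and 0.14. Low UMI counts limit the precision of *ERR*, *bigmax* and, in most clusters, *sug*.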
